A study of Oryza sativa with 2 samples.

Results

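The genes described here encode the core machinery of cell division in rice: the cyclin-dependent kinases (CDKs) CDKA1, CDKB1;1 and CDKB2;1, the B-type cyclins CYCB1;1, CYCB2;1 and CYCB2;2, the CDK inhibitor KRP1 and the replication protein PCNA. They were chosen by locus identifier, and all 8 were found among the 55986 gene models of the deposited count table. The salinity sample came from seedlings of the cultivar CARI Dhan 7 whose seeds had germinated in a solution of NaCl, Na2SO4, CaCl2 and MgSO4 with an electrical conductivity of 6 dS/m, and the control sample from seedlings of the same cultivar raised in distilled water, at 0 dS/m. Both were taken at 14 days and sequenced as poly(A)-enriched RNA, with 1 library per group. The labels call the material seedlings and do not say which organs, or how many plants, entered a library.

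CDKs are inactive alone and need a bound cyclin to phosphorylate their targets. In plants the A-type kinase acts both at the start of DNA synthesis and at entry into mitosis, while B-type CDKs, which are particular to plants, and B-type cyclins accumulate around mitosis. KRP proteins bind CDK-cyclin complexes and block them, and PCNA is the ring-shaped clamp that holds DNA polymerase on the template during S phase. In a seedling, dividing cells are concentrated in the shoot apex, the bases of growing leaves and the root tips.

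The salinity library held 15031328 counts and the control library 45359020. Every salinity value above 0 was even and 70.6% were multiples of 4, while 61.7% of control values above 0 were even. Counts were read as read pairs, with 4 salinity counts or 2 control counts as 1 pair. This scale assumes that mates were counted separately and salinity values doubled, which the parity does not establish, and it gives 3757832 pairs for the salinity library and 22679510 for the control library. Levels are given as CPM, which is counts per 1000000 after TMM scaling of the library size. Where genes are compared with each other, levels are CPM per kilobase of exon. Ratios are log2 of salinity over control CPM with a 95% counting interval. Calls required that no part of this interval came within 2-fold of equality. Each group being a single library, the calls compare 1 library with 1 other, without replicate error and without p-values. Intervals therefore cover counting error only. Any PCR copies among the counts, which are not independent molecules, would make them too narrow.

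The level of each of the 8 genes was below its control level in the salinity library, as it was for 51.6% of all tested models, by amounts that ran from 1.05-fold for KRP1 to 3.18-fold for CYCB2;2. The median log2 ratio of the 8 genes was -0.57, against -0.043 over the 26638 tested models, those whose counts summed to 10 or more. Only CYCB2;2 was called, as lower, and 0 of 8 were called higher. Over all models 5.17% were called lower and 7.97% higher. Among the 10490 models with no fewer than the 1018 counts of the least-counted gene of the set, 839 were called lower and 1049 higher. By the looser measure of an interval wholly below 0, 7 of 8 genes were lower, against 25.2% of all models and 37.9% of models at that depth, and 0 of 8 were wholly above 0, against 25.3% of all models. With counts as deposited, whose intervals are narrower, 1 of 8 was called lower, against 10.3% of all models lower and 10.6% higher. With a rule of 1.5-fold 2 of 8 were lower, against 10.5% of all models lower and 12.8% higher, and by the point estimate alone 2 of 8, against 18.0% lower and 16.9% higher. With bulk seedling RNA as the source, fewer dividing cells and less RNA per dividing cell cannot be told apart.

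**Figure D1:**
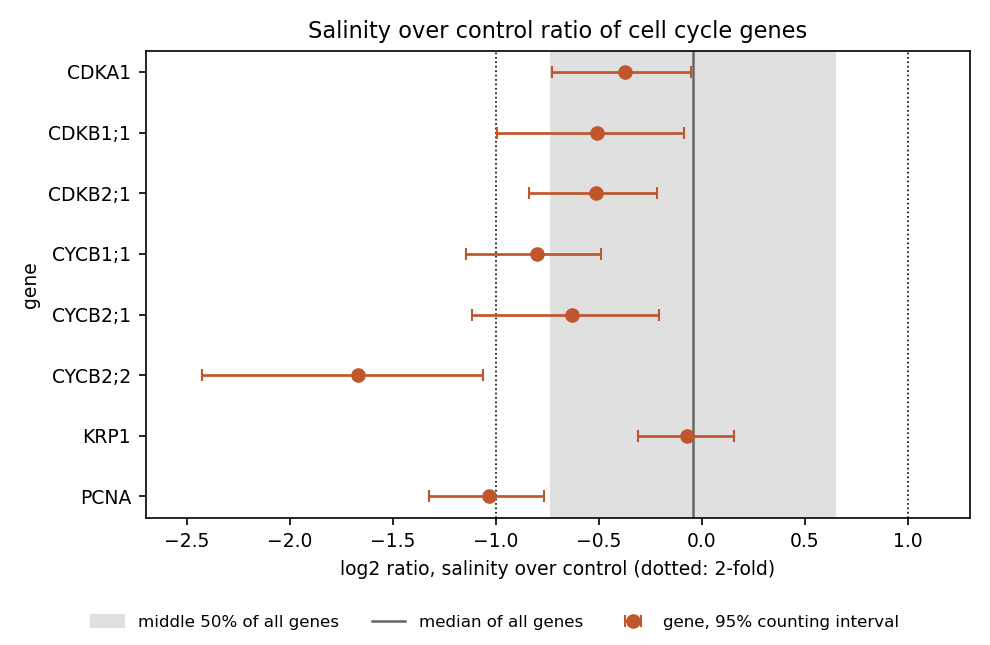
Log2 ratio of salinity over control CPM for each gene (points) with its 95% counting interval (bars). The grey band holds the middle 50% of all 26638 models, the solid line is their median of -0.043 and dotted lines mark 2-fold. CYCB2;2 at -1.67 is the only gene whose whole interval lies beyond 2-fold, PCNA at -1.03 straddles that line, and KRP1 at -0.072 lies beside the median of all genes.

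Of the 3 kinases, 0 were called in either direction, against 5.17% of all models lower and 7.97% higher. Their ratios lay close together, from -0.51 to -0.37. CDKA1 (LOC_Os03g02680, chromosome 3, 997600 to 1001243, plus strand, 6 exons) encodes the A-type kinase, the class that carries the PSTAIRE motif in its cyclin-binding helix. It had 330 counts or 24.0 CPM in the salinity library and 1547 counts or 31.2 CPM in the control library. That is a log2 ratio of -0.37 (interval -0.73 to -0.053). The salinity level was the lower one by less than 2-fold and the interval reached nearly to no change.

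CDKB1;1 (LOC_Os01g67160, chromosome 1, 38981302 to 38984078, minus strand, 7 exons) and CDKB2;1 (LOC_Os08g40170, chromosome 8, 25419884 to 25421827, plus strand, 6 exons) represent both classes of B-type kinase. The first had 184 counts or 13.4 CPM in the salinity library and 952 counts or 19.2 CPM in the control library, at -0.51 on the log2 scale (interval -0.99 to -0.085). The second had 380 counts or 27.6 CPM in the salinity library and 1963 counts or 39.6 CPM in the control library, a log2 ratio of -0.51 (interval -0.84 to -0.22). Both ratios were alike to the second decimal, and the level of the B2 kinase per kilobase was 1.80 times that of the B1 kinase in the salinity library and 1.79 times in the control library.

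The B-type cyclins, whose proteins activate CDKs for mitosis and are destroyed as it ends, had log2 ratios from -1.67 to -0.63. CYCB1;1 (LOC_Os01g59120, chromosome 1, 34149431 to 34152417, minus strand, 9 exons), often used as a marker of cells about to divide, had 342 counts or 24.8 CPM in the salinity library and 2156 counts or 43.5 CPM in the control library. Its log2 ratio was -0.80 (interval -1.14 to -0.49). CYCB2;1 (LOC_Os04g47580, chromosome 4, 28218714 to 28221677, minus strand, 10 exons) had 184 counts or 13.4 CPM in the salinity library and 1036 counts or 20.9 CPM in the control library, with a log2 ratio of -0.63 (interval -1.11 to -0.21). Neither gene was called, although both intervals lay below 0.

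CYCB2;2 (LOC_Os06g51110, chromosome 6, 30915029 to 30918862, minus strand, 12 exons), the other B2 cyclin, fell the most. It had 80 counts or 5.81 CPM in the salinity library and 938 counts or 18.9 CPM in the control library, which puts its log2 ratio at -1.67 (interval -2.43 to -1.06). The salinity value rests on 20 read pairs, which is why its interval is the widest of the set. Per kilobase, the level of CYCB2;1 was 2.54 times that of CYCB2;2 in the salinity library and 1.22 times in the control library. The log2 ratio of CYCB2;2 minus that of CYCB2;1 was -1.06 (interval -1.92 to -0.25), a comparison within libraries that does not depend on how the libraries are scaled. That interval takes in 0 when it is widened for the number of pairs compared (-2.43 to 0.19).

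KRP1 (LOC_Os02g52480, chromosome 2, 32111311 to 32112949, plus strand, 4 exons), the inhibitor, was the gene whose level differed least. It had 692 counts or 50.3 CPM in the salinity library and 2624 counts or 53.0 CPM in the control library. The log2 ratio of -0.072 (interval -0.31 to 0.15) placed it at percentile 48.8 of all models. With total-count scaling, which moves the median of all genes to -0.30, its ratio was -0.33 (interval -0.57 to -0.10).

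PCNA (LOC_Os02g56130, chromosome 2, 34351407 to 34353656, plus strand, 4 exons), the replication clamp, had 460 counts or 33.4 CPM in the salinity library and 3400 counts or 68.6 CPM in the control library. Its log2 ratio of -1.03 (interval -1.32 to -0.77) crossed the 2-fold line, so it was not called. Total-count scaling gave -1.29 (interval -1.58 to -1.02) and called it lower. Among the 8 genes only CYCB2;2 had a lower ratio, and the PCNA ratio lay at percentile 17.4 of all models.

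The order of the genes by level differed between the libraries at 2 places, at the top and between CDKA1 and CYCB1;1. Per kilobase of exon, the salinity library had KRP1 first at 39.7 CPM, followed by PCNA at 26.7 CPM, whereas the control library had PCNA first at 54.9 CPM and KRP1 next at 41.8 CPM. CDKB2;1 followed these top genes in both, at 20.8 CPM per kilobase in the salinity library and 29.9 in the control library. CDKA1 stood above CYCB1;1 in the salinity library and below it in the control library. The B2 cyclins were the least abundant in both, with CYCB2;2 last at 2.90 CPM per kilobase in the salinity library and 9.45 in the control library.

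Neighbours in this order could not all be separated by counting error. In the salinity library the intervals of the differences took in 0 between PCNA and CDKB2;1, between CDKA1 and CYCB1;1, and between CYCB1;1 and CDKB1;1. In the control library, with more pairs, each gene differed from the next beyond counting error, the closest being CDKA1 over CDKB1;1 by a log2 difference of 0.19 (interval 0.022 to 0.36). The 8 genes lay between percentiles 37.9 and 89.2 of all tested models in the salinity library and between 62.7 and 93.2 in the control library, CYCB2;2 holding the low end of both ranges.

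**Figure D2:**
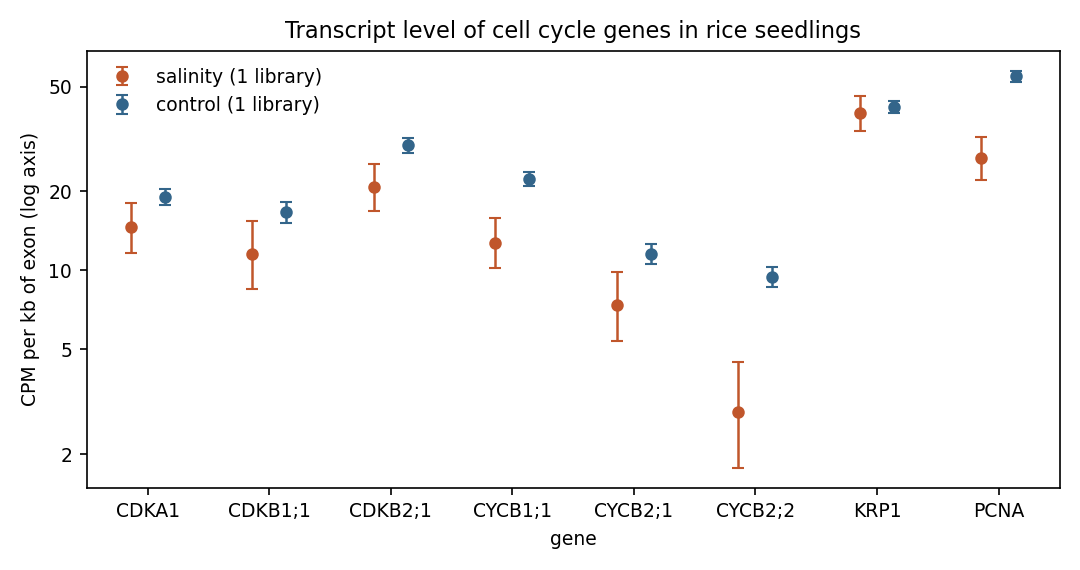
Level of each gene in CPM per kilobase of exon (log axis) in the salinity library and the control library, 1 library each. Bars are exact Poisson 95% intervals of the read pairs. The points of KRP1 are level at 39.7 and 41.8, those of PCNA stand apart at 26.7 and 54.9, and those of CYCB2;2 stand farthest apart at 2.90 and 9.45.

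Summed over the set, transcript levels came to 136.4 CPM per kilobase in the salinity library and 205.5 in the control library. KRP1 made up 29.1% of that sum in the salinity library and 20.4% in the control library. PCNA made up 19.6% in the salinity library and 26.7% in the control library, and CYCB2;2 made up 2.13% in the salinity library and 4.60% in the control library. The kinases together stood at 47.0 CPM per kilobase in the salinity library and 65.5 in the control library, and the B cyclins together at 23.0 in the salinity library and 43.3 in the control library.

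Set against CDKA1 within each library, which removes the library scaling, CYCB2;2 was lower in the salinity library by a log2 difference of -1.31 (interval -2.12 to -0.57) and PCNA by -0.65 (interval -1.09 to -0.20). CYCB1;1 at -0.41, CYCB2;1 at -0.25, CDKB1;1 at -0.13, CDKB2;1 at -0.13 and KRP1 at 0.32 had intervals that took in 0. For the B2 kinase the interval ran from -0.60 to 0.34, so the counts did not settle the direction of any difference from CDKA1. The KRP1 transcript per CDKA1 transcript, by level per kilobase, was 2.72 in the salinity library and 2.20 in the control library, and the PCNA transcript per CDKA1 transcript was 1.83 in the salinity library and 2.89 in the control library.

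**Figure D3:**
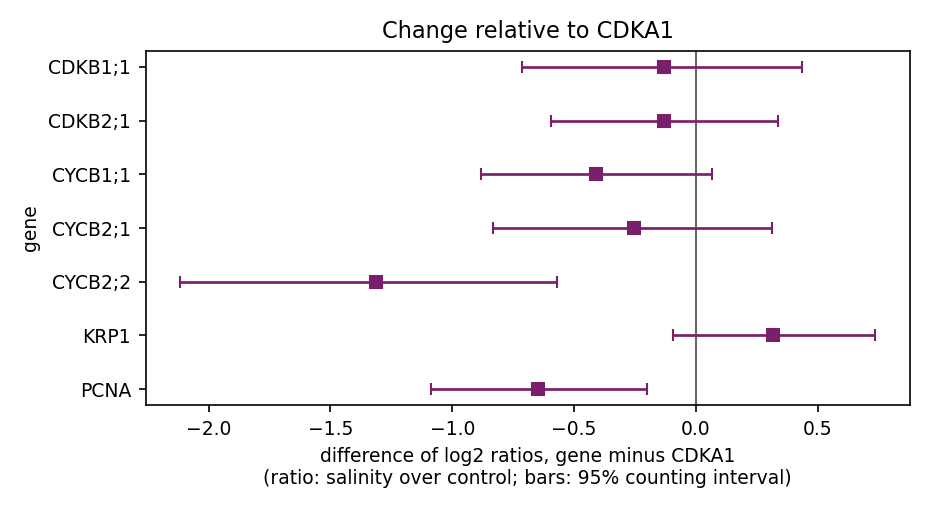
Difference between the log2 salinity over control ratio of each gene and that of CDKA1 (squares), with the exact conditional 95% interval of the read pairs (bars). CYCB2;2 at -1.31 and PCNA at -0.65 lie wholly below 0, while the interval of KRP1 at 0.32 takes in 0.

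Over all 28 pairs of the 8 genes, 12 differed beyond the 95% counting interval and 5 beyond intervals widened for 28 comparisons. The 5 were CYCB2;2 below CDKA1, CDKB2;1 and KRP1, and CYCB1;1 and PCNA below KRP1. The log2 ratio of PCNA minus that of KRP1 was -0.96 (interval -1.33 to -0.60), and that of KRP1 minus that of CYCB1;1 was 0.72 (interval 0.32 to 1.13). KRP1 was part of 3 of these 5 pairs. Its ratio was the highest of the 8 genes, so it is by construction the higher gene of any pair.

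DNA replication genes, which work alongside PCNA, were the wider list with the lowest median. Of 20 measured, 3 were called lower, against 5.17% of all models, and 0 higher. Intervals lay wholly below 0 for 14 of the 20, against 25.2% of all models, with a list median of -1.02 against -0.043 over all tested models. The MCM genes, which encode the ring-shaped helicase that opens DNA ahead of the polymerase, had intervals wholly below 0 in 6 of 6 and had a median of -1.28. MCM6 had 76 counts or 5.52 CPM in the salinity library and 967 counts or 19.5 CPM in the control library, which gives a log2 ratio of -1.79 (interval -2.57 to -1.16). MCM3 was called at -1.66, and ORC1, part of the complex that marks replication origins, at -1.51 with its interval ending on the 2-fold line. With DESeq2 size factors the ORC1 interval ended at -0.97 and the call was lost. MCM levels summed to 19.5 CPM per kilobase in the salinity library and 50.3 in the control library.

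Neither of the replication genes with the highest mean CPM per kilobase over both libraries, RNRS1 and LIG1, was called. RNRS1, a small subunit of the enzyme that makes deoxyribonucleotides, had 32.8 CPM in the salinity library and 62.3 CPM in the control library, a log2 ratio of -0.92. LIG1, the ligase that joins newly made DNA fragments, had 38.9 CPM in the salinity library and 34.7 CPM in the control library, a log2 ratio of 0.17 (interval -0.11 to 0.43). TOP2, the topoisomerase that untangles DNA, named after its values were seen, had more CPM than RNRS1 in both libraries, with 36.9 CPM in the salinity library and 82.6 CPM in the control library, and was not called at -1.16 (interval -1.43 to -0.90). PCNA, at -1.03, lay close to the median of this list. When the MCM genes, summed, took the place of CDKA1 as the yardstick, PCNA was at 0.33 (interval -0.029 to 0.68) and CYCB2;2 at -0.34 (interval -1.10 to 0.35), while the other 6 genes stood above the MCM sum, from 0.56 for CYCB1;1 to 1.29 for KRP1.

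Cyclins outside the set had 0 of 13 measured genes called in either direction, against 5.17% of all models lower and 7.97% higher. Their median was -0.75, and 6 of the 13 intervals lay wholly below 0, against 25.2% of all models. With a prior of 2 read pairs the list median was -0.38, against 0.15 over all models. With a filter of at least 50 counts it was -0.45, against -0.020 over all models. CYCB1;5, another mitotic cyclin, had 23.5 CPM in the salinity library and 41.6 CPM in the control library, and its log2 ratio of -0.81 (interval -1.17 to -0.49) was close to the -0.80 of CYCB1;1. The most abundant D-type cyclin by CPM per kilobase, of the class that responds to growth signals, was CYCD5;3, at 28.8 CPM in the salinity library and 40.8 CPM in the control library, a log2 ratio of -0.50. The A-type and B-type cyclins had a median of -0.81 over 7 genes, and the D-type cyclins -0.48 over 6.

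Other CDKs and CDK inhibitors had 2 of 15 called higher, against 7.97% of all models, and 0 lower. Their list median was 0.30, and 10 of 15 intervals lay wholly above 0, against 25.3% of all models, with 2 wholly below. CDKG2, of a CDK class linked to RNA processing in plants, rose to 208.1 CPM in the salinity library, against 77.8 CPM in the control library, a log2 ratio of 1.42 (interval 1.29 to 1.54). KRP3, a CDK inhibitor of the same family as KRP1, rose to 4.94 CPM in the salinity library, against 1.13 CPM in the control library, at a log2 ratio of 2.14 (interval 1.17 to 3.05) that rests on 17 and 28 read pairs. With total-count scaling its interval began at 0.91 and its call was lost. EL2, another inhibitor, was at 90.1 CPM in the salinity library and 73.5 CPM in the control library, a log2 ratio of 0.30. CKS1, the small adaptor that binds CDKs, was the most abundant gene of the list per kilobase in the control library and lay below 0, with 206 counts in the salinity library and 1611 counts in the control library, at -1.11 on the log2 scale (interval -1.56 to -0.71). CDKA2, the other A-type kinase, named after its values were seen, had 4.65 CPM in the salinity library and 13.5 CPM in the control library, and was not called at -1.49 (interval -2.36 to -0.82). The 8 CDKs of the C, D, E, F and G classes, which act mainly in transcription or in activating other kinases, had a median of 0.51, against -0.51 for the 3 kinases of the set.

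The retinoblastoma and E2F genes, which gate entry into S phase, had 0 of 7 called, against 5.17% of all models lower and 7.97% higher. Their median of -0.30 was the log2 ratio of E2F3, which rests on 3 salinity read pairs. With a prior of 2 read pairs the list median was 0.011, against 0.15 over all models. RBR2 was at 33.3 CPM in the salinity library and 28.7 CPM in the control library, and DP1, an E2F partner, at 9.73 CPM in the salinity library and 7.07 CPM in the control library. RBR1, chosen after its values were seen, had 2.62 CPM in the salinity library and 9.67 CPM in the control library, a log2 ratio of -1.81 (interval -3.03 to -0.94). Mitosis and anaphase genes likewise had 0 of 7 called, with a median of -0.26. Of their intervals 3 lay wholly below 0, against 25.2% of all models, and 1, that of MYB3R2, wholly above, against 25.3%. AUR1 at -1.36 (interval -2.04 to -0.79) and MAD2 at -1.38 (interval -2.12 to -0.78), also named after their values were seen, were not called. CDC20-1 and TAD1, activators of the complex that degrades B cyclins, had log2 ratios of -0.26 and 0.0096. MYB3R2, a factor known in rice to activate B cyclin genes and chosen here after its values were seen, was at 26.4 CPM in the salinity library and 18.0 CPM in the control library, a log2 ratio of 0.56 (interval 0.21 to 0.88).

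**Figure D4:**
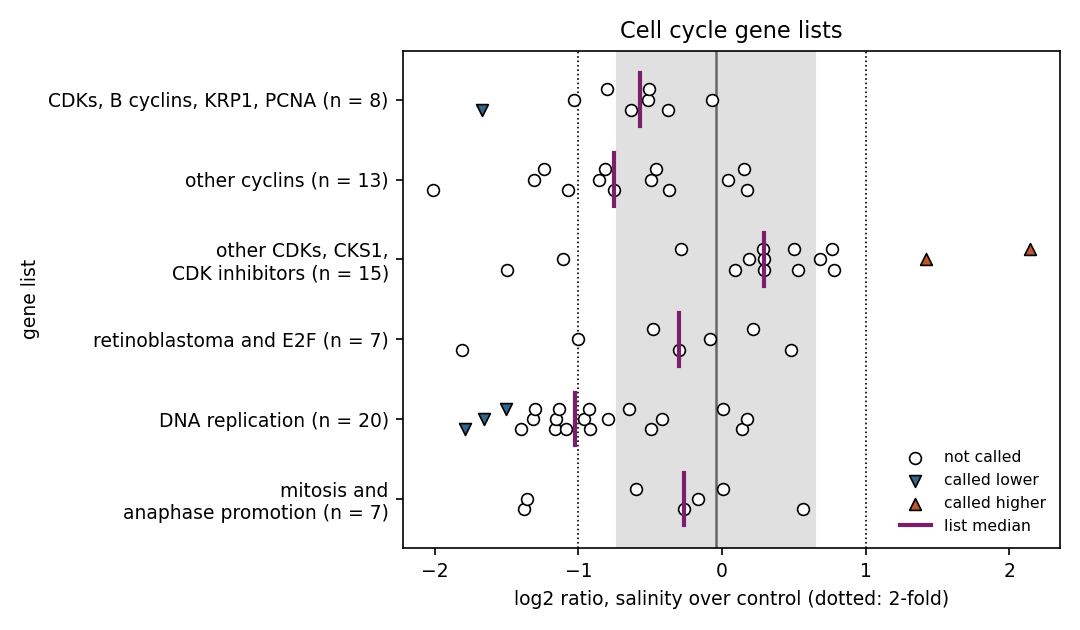
Log2 ratio of salinity over control for each measured gene (symbols) of the set of 8 and of 5 wider cell cycle lists. Purple bars are list medians, the grey band and solid line are the middle 50% and the median of all models, and dotted lines mark 2-fold. DNA replication genes cluster around their median of -1.02, and the other CDKs and inhibitors lie mostly right of 0 around 0.30.

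Marker lists of seedling parts differed between the libraries as well, and their part in these results was not tested. For comparison, 7.97% of all models were called higher and 5.17% lower, and 25.3% had intervals wholly above 0. Of 3 measured markers of the shoot meristem, 0 were called but 3 of 3 intervals lay wholly above 0, at log2 ratios from 0.93 to 1.16, and their summed level was 84.1 CPM in the salinity library and 41.5 CPM in the control library. Root markers had 1 of 9 called higher and 2 lower, with sums of 1501 CPM in the salinity library and 1564 CPM in the control library. Green leaf markers had 1 of 4 called higher, with 43478 CPM in the salinity library and 25119 CPM in the control library. Both leaf senescence markers had intervals wholly above 0 and 1 was called higher, the list summing to 204.3 CPM in the salinity library and 54.0 CPM in the control library. Grain markers had 2 of 5 called lower, with 10.2 CPM in the salinity library and 1427 CPM in the control library, and AMY1A and GLUA1 were at 0 counts in the salinity library. GLUA1 had only 19 counts in the control library, and its interval, reaching up to 1.77 on the log2 scale, took in no change. AMY1A alone held 1390 CPM of the control sum, and without it the list summed to 10.2 CPM in the salinity library and 37.1 CPM in the control library.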

How the data were processed

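The submitters' processing notes name STAR, featureCounts, DESeq2, FastQC and MultiQC as the authors' tools. Their versions, the genome build, the annotation, the counting options and strand use were not given in the sources used here. What the authors deposited are whole-number counts per gene model, with exon positions and exon length. Coordinates are those of the deposited table. TMM and upper-quartile factors came from edgeR 4.0.16, size factors from DESeq2 1.42.0 (R 4.3.3), and intervals from scipy 1.17.1 with pandas 2.3.3, numpy 2.4.6 and Python 3.11.15. Figures used matplotlib 3.10.9. The log2 ratio adds 0.5 read pairs per library. The counting interval comes from the exact conditional binomial (Clopper-Pearson) interval of the salinity share, and differences between genes use the exact conditional odds ratio. The procedure was tested on simulated counts, drawn as Poisson read pairs at the assumed scale of 4 salinity or 2 control counts per pair. The simulation held no variation between libraries, so it cannot test that scale or the effect of such variation.

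The members and lists were chosen with earlier results of these data known. All 8 members were found by name on the same chromosome in the RefSeq name table (assembly ASM3414082v1), with a span within 2.5-fold. Positions had to lie within 1 Mb of the place expected from the nearest other locus matched by name. CYCB2;2 lay 685793 bases from that place, against at most 18222 for any other member. Of the wider lists 39 loci were found, 6 were dropped and 24 names, among them all E2F, DP, RNR, TOP2, LIG1, CDC6, AUR, CDC20-1, TAD1, MAD2 and CYCD1;1 names, were not in the table and rest on general knowledge. Those tolerances were set after values were seen. Named genes are the 8, up to 4 called per list and direction, and the 2 most abundant per list. Grouping by cyclin or CDK class was done after values were seen. No member shares exon bases with another gene model. Tested alternatives were other scalings, filters, priors, size rules, the count scale, and a different yardstick gene.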

Additional observations from a re-analysis of the deposited data

How the results depend on the processing

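Ratios of 8 members kept their direction under 10 alternatives, and the CYCB2;2 call held in each. By construction, the size rules and the removal of models that share exon bases could not change a member ratio. Neither they nor the prior could lose the CYCB2;2 call. PCNA was also called lower with total counts (-1.29), beyond 1.5-fold and by a point estimate of 2-fold (-1.03 in both), which makes 2 of 8. Over all 26638 tested models 2124 (7.97%) were higher and 1376 (5.17%) lower. The values were 1639 and 2127 with total counts, 2831 and 2755 with counts as deposited, 3408 and 2803 beyond 1.5-fold, and 4504 and 4807 by point estimate. Of 62 wider genes 2 were higher and 3 lower. With total counts 10 of the 62 were lower and 1 higher, against 2127 and 1639 of the 26638 models. Deposited counts gave 10 lower, against 10.3% of all models. Beyond 1.5-fold 17 were lower, against 10.5% of all models, and by point estimate 20, against 18.0%. The median of all genes was -0.30 with total counts, 0.091 without a filter and 0.15 with a prior of 2. Relative to CDKA1, deposited counts narrowed the intervals of CYCB1;1 (-0.43) and KRP1 (0.31) to exclude 0. With the MCM sum as yardstick, CDKB1;1 stood at 0.84, CDKB2;1 at 0.84, CYCB1;1 at 0.56, CYCB2;1 at 0.72 and PCNA at 0.33, all reversed in sign, with CYCB2;2 at -0.34 and KRP1 at 1.29. By construction these follow from the lower MCM levels. Looser size rules and narrower intervals call more genes by construction. For the scalings the cause was not tested. No paired analysis was possible because each group has 1 library. The salinity library, with 3757832 read pairs, limits precision.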

Other observations

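The nearest gene model on each side of each of these cell cycle genes was looked at because the members lie apart from each other. Over all models 7.97% were called higher and 5.17% lower. Beside PCNA, LOC_Os02g56120 was called higher on one side, with 264 counts in the salinity library and 98 in the control library, a log2 ratio of 3.27 (interval 2.72 to 3.84). On the other side LOC_Os02g56140 had 0 counts in the salinity library and 266 in the control library and was called lower, with an interval lying wholly below -2.30 on the log2 scale. PCNA itself lies between them at -1.03. Beside CYCB1;1, LOC_Os01g59110 had 88 counts in the salinity library and 82 in the control library and was called higher. Its log2 ratio was 1.96 (interval 1.13 to 2.73), opposite in sign to the -0.80 of CYCB1;1. Beside CYCB2;1, LOC_Os04g47570 was called higher at 3.38 (interval 1.36 to 5.70), on only 24 counts in the salinity library and 8 in the control library. No other neighbour was called. Beside CYCB2;2, LOC_Os06g51100 was at -0.26 (interval -0.89 to 0.28). These models were chosen for their position, and those named here after their values were seen.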
